A study of Mus musculus with 20 samples.

Results

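The experiment compared DC2 cells in which Ift88 was silenced with cells given a control siRNA, and it makes up 8 of the 20 libraries of the series, 4 with Ift88 siRNA and 4 with control siRNA. DC2 is an immortalised mouse cell line made from principal cells of the distal caput of the epididymis. According to the study's methods, Ift88 was targeted with a mixture of siRNAs against different parts of its coding sequence, the control was a scrambled siRNA, and both groups were transfected with the same lipid reagent. The paper states that both siRNA groups were under flow, while the labels mention flow, for 3 h at a shear stress of 1 dyn/cm2, only in a protocol text that all samples share. The labels do not say whether the 4 libraries of a group came from separate cultures, and p-values measure only the spread between them. Libraries of siRNA-treated cells without flow were not analysed here. The other 12 libraries came from cells that were not transfected, 6 under flow and 6 without flow (static).

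Ift88 encodes a subunit of intraflagellar transport complex B, the train of proteins that carries cargo along the axoneme and without which a primary cilium is not built or kept. In epithelia of tubular organs, the primary cilium is an antenna on the luminal side, and bending of cilia by fluid is one of the ways such cells are thought to sense flow. Immediate early genes such as Fos and Egr1 are switched on within minutes to hours of a stimulus without new protein synthesis. Interferon-stimulated genes form another rapid programme, in which transcription factors bind short DNA elements near the start sites of antiviral genes.

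Ift88 (chromosome 14, 57424062 to 57517936, GRCm38) was measured at 4.21, 4.08, 4.15 and 4.12 TPM (transcript abundance scaled to a sum of 1000000 per library and corrected for transcript length) in control siRNA replicates 1 to 4. The Ift88 siRNA libraries held 1.71, 1.27, 1.28 and 0.917 TPM. All 4 treated libraries were thus below all 4 controls. The mean fell from 4.14 ± 0.0541 TPM (SD, n = 4) to 1.295 ± 0.326 TPM (SD, n = 4), -1.17 in log2 fold change, with a standard error of 0.13 and a limma adjusted p of 0.00212. The two-sided exact permutation p was 0.0286, the smallest that 4 libraries against 4 can give. None of the other 15 intraflagellar transport B genes tested passed the adjusted p, and their log2 fold changes ran from -0.13 (Ift46, which stabilises the complex) to 0.14 (Ift172, its largest subunit).

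**Figure D1:**
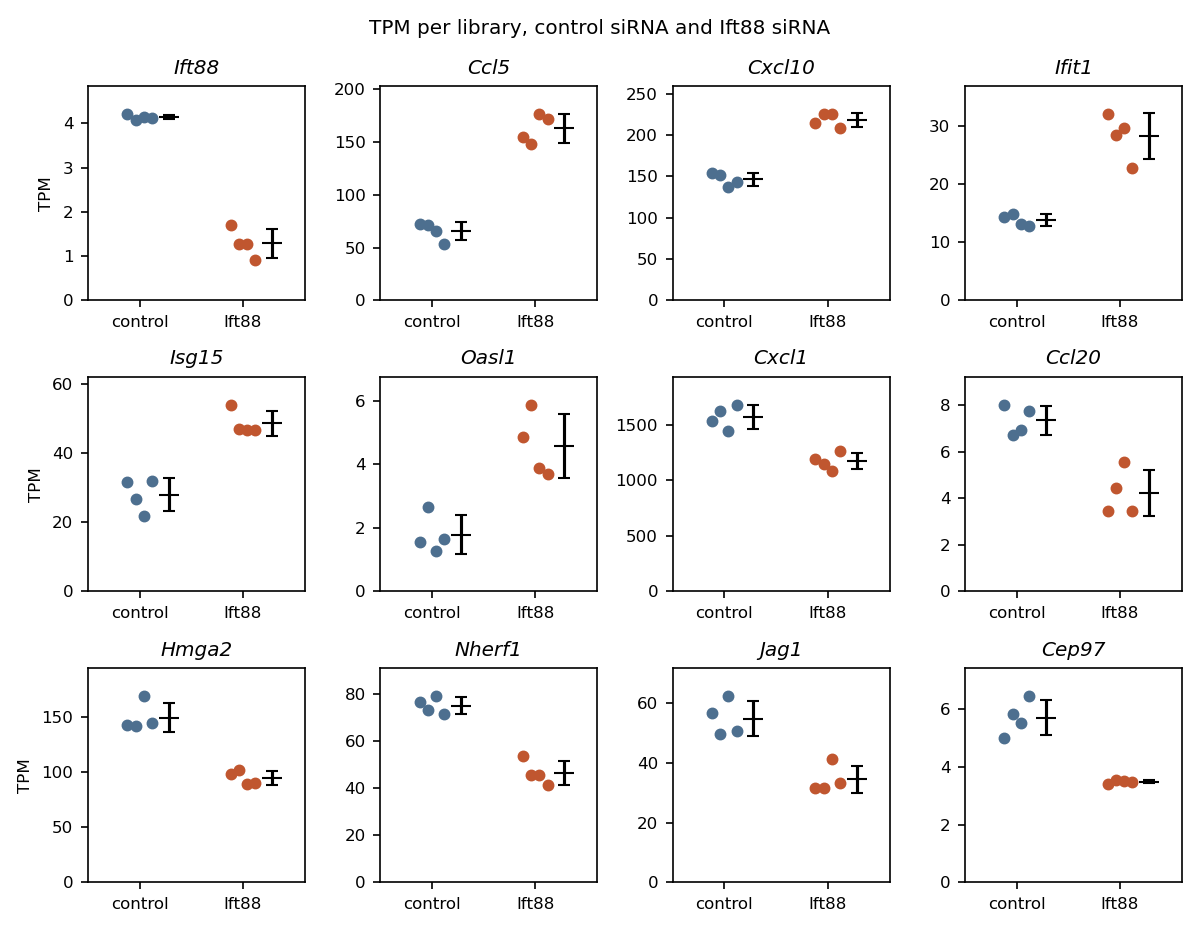
TPM per library (points) for 12 genes with control siRNA (blue) and Ift88 siRNA (orange), with the mean and SD of 4 libraries as black bars beside them, each panel starting at 0. In all 12 panels the groups do not overlap, with Ift88 at 0.917 to 1.71 TPM against 4.08 to 4.21 TPM.

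TPM were compared as log2(TPM + 1) over the 11209 genes that averaged 1 TPM or more, and a gene was called when its limma adjusted p was under 0.05 and its change over 1.5-fold on that scale. By this rule 17 genes were higher with Ift88 siRNA, 0.152% of all genes tested, and 8 were lower, 0.0714%, in all 25 genes or 0.223%. By the adjusted p alone 71 genes passed, 0.633% of all tested, 51 of them higher (0.455%) and 20 lower (0.178%). The median log2 fold change of all genes tested was 0.02, with the middle 90% between -0.25 and 0.29, so changes over 1.5-fold were at the edge of the distribution. In each of the 71 genes past the adjusted p, the groups did not overlap, against 8.58% of all genes tested (5.79% higher and 2.79% lower), which the test itself favours. The number of calls depended on single libraries: 11 without control siRNA replicate 1 or without Ift88 siRNA replicate 1, 12 without control siRNA replicate 4, 13 without Ift88 siRNA replicate 2 and 14 without control siRNA replicate 3. With no filter on low TPM the calls were 6, namely Ift88, Ccl5, Ifit1, Chst12, Hmga2 and Nherf1. Of the calls, 68.0% were higher, with median-of-ratios scaling 54.5% and with no filter on low TPM 50.0%. Over the fits without 1 library the share ran from 36.4%, without Ift88 siRNA replicate 1, to 65.0%.

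**Figure D2:**
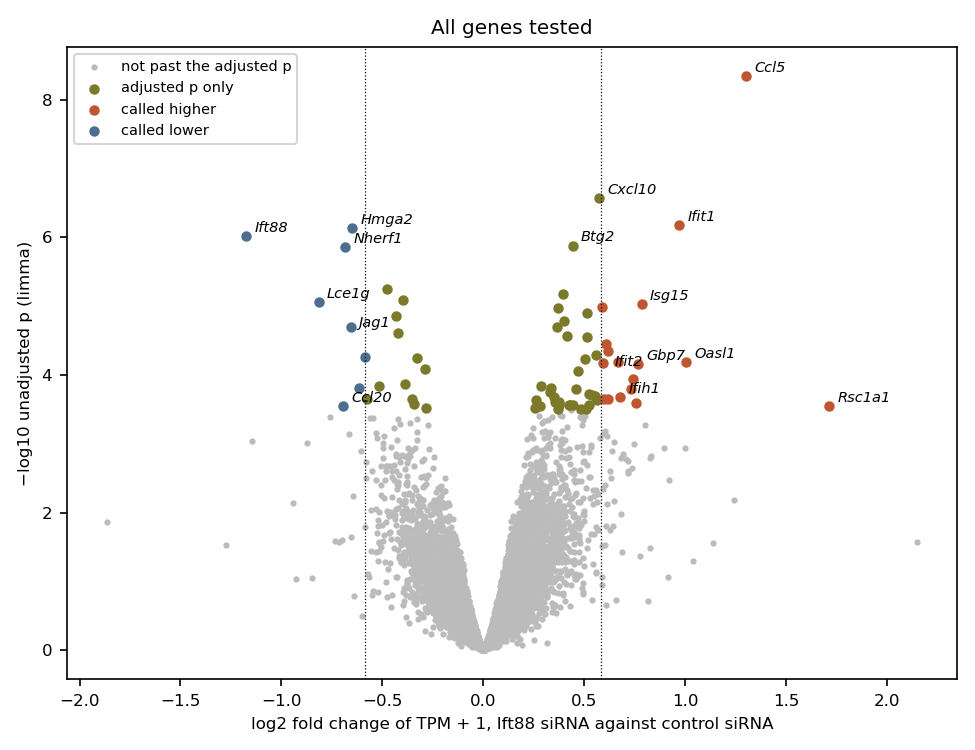
Log2 fold change (x axis, log2 of TPM + 1) and −log10 of the unadjusted limma p (y axis) of the 11209 genes tested, with the 17 called higher in orange, the 8 called lower in blue, those past the adjusted p only in olive, and dotted lines at 1.5-fold. Ccl5 stands highest, with a log2 fold change of 1.30, and Ift88 is the leftmost called gene, at -1.17.

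Of the 17 genes called higher, 7 belong to a list of interferon-stimulated effectors, the proteins that carry out the antiviral state, and Ifih1 to a list of nucleic acid sensors. The regions in front of the start sites were searched for the element that interferon-activated factors bind, as GAAA followed, after any 2 bases, by GAAA, or on the other strand TTTC, any 2 bases and TTTC, with overlapping matches allowed. Of the 7 effectors, Isg15, Ifit1, Gbp7 and Apol9a had a match and are shown for it, while Oasl1, Ifit2 and Samd9l had none in this window, nor did Ifih1. RefSeq (GRCm38.p6) gives the 250 bases before each start, 5′ to 3′ on the strand of the gene, and capitals mark the matches. The windows are chr4:156200819-156201068 (minus strand) for Isg15, chr19:34640639-34640888 (plus) for Ifit1, chr3:142530086-142530335 (plus) for Gbp7, chr15:77411081-77411330 (minus) for the first of the Apol9a starts and chr5:92348890-92349139 (minus) for Cxcl10, an interferon-inducible chemokine past the adjusted p.
Isg15: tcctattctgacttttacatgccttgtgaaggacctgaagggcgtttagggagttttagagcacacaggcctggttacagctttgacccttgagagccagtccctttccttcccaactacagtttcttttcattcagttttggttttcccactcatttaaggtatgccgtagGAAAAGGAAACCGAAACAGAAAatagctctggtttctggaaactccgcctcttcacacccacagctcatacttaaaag
Ifit1: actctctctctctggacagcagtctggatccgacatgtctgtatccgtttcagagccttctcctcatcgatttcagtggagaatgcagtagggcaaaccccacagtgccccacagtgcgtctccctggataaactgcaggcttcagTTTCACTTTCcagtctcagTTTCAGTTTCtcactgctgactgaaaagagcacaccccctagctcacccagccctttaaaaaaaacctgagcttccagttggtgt
Gbp7: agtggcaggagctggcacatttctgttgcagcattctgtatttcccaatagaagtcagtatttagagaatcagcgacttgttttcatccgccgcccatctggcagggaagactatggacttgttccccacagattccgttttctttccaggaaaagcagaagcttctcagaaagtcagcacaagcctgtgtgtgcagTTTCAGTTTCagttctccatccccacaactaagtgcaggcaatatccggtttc
Apol9a: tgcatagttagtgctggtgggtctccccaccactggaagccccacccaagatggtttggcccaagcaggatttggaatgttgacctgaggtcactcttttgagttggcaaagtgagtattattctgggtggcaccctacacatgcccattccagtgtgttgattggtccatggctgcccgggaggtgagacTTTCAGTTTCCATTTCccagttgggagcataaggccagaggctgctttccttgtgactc
Cxcl10: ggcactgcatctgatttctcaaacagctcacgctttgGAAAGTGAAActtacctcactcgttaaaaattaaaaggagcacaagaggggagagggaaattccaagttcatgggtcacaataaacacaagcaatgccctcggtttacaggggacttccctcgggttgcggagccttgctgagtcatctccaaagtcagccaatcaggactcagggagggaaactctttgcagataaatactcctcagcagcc

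In Isg15, 3 overlapping matches began 78, 72 and 66 bases before the start. In Ifit1, matches began 104 and 85 bases before it, in Gbp7 53 bases and in Apol9a 59 and 53 bases. The match of Cxcl10 lay farther out, at 213 bases. Of all 32851 windows in the table, 2.98% held a match. By gene, 15 of the 17 called higher were in the table and 5 of them had a match in at least 1 window, the fifth being Selenop, while 0 of 7 matched genes called lower had one. Among the 9027 genes tested that were in the table the share was 2.89%, and among 36 interferon-stimulated effectors it was 41.7%. A match describes the sequence and does not show that a factor bound there in these cells.

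Isg15 encodes a ubiquitin-like protein that is attached to other proteins during the interferon response. It was at 31.8, 26.7, 21.9 and 31.9 TPM with control siRNA and at 54.0, 47.1, 46.8 and 46.7 TPM with Ift88 siRNA, higher by 0.79 in log2 (standard error 0.11, limma adjusted p = 0.00855). The highest control library stayed below the lowest treated one by more than the range of the controls.

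Ifit1 encodes a protein that binds viral RNA lacking the cap modification of host RNA. Its control libraries held 14.4, 14.97, 13.2 and 12.8 TPM and its Ift88 siRNA libraries 32.1, 28.6, 29.6 and 22.8 TPM, higher by 0.97 in log2 (standard error 0.11, limma adjusted p = 0.00206). Replicate 4 was the lowest of both groups, and the groups did not overlap. Ifit2, its neighbour in sequence family and function, was at 35.1, 33.8, 33.6 and 30.7 TPM against 65.5, 47.3, 49.5 and 46.5 TPM, and its call was kept in 5 of 8 fits without 1 library each. Isg15 and Ifit1 were called in all 8.

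Oasl1, an oligoadenylate synthetase-like protein, and Gbp7, a guanylate-binding GTPase, were at low levels. Oasl1 was at 1.57, 2.66, 1.29 and 1.65 TPM against 4.85, 5.88, 3.89 and 3.69 TPM, a log2 fold change of 1.01 (limma adjusted p = 0.0238). Gbp7 was at 2.22, 2.02, 1.599 and 2.12 TPM against 4.48, 4.61, 3.82 and 3.45 TPM, a log2 fold change of 0.77 (limma adjusted p = 0.0241). The groups did not overlap in either gene, and the calls were kept in 3 and 1 of the 8 fits without a library. At such levels the log2(TPM + 1) scale understates the change, which by the ratio of mean TPM was 2.56 for Oasl1 and 2.05 for Gbp7. Apol9a, of the apolipoprotein L family, had a log2 fold change of 0.74 (limma adjusted p = 0.0371) and Samd9l, an antiviral factor that restricts translation, of 0.60 (limma adjusted p = 0.0480), kept in 3 and 1 of these fits. Apol9a has a near-identical neighbour, Apol9b, at 0.61 (limma adjusted p = 0.0795), and reads can be split between them.

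Over the whole list of effectors, 42 genes were tested and the median log2 fold change was 0.33, against 0.02 for all genes. The 7 called genes are also the 7 past the adjusted p, all higher, where 0.455% of all genes tested were higher by that rule. Of the 42, 39 had a higher and 3 a lower mean, where 55.0% and 45.0% of all genes did. Next in order of p were Ifi27 (log2 fold change 0.59, limma adjusted p = 0.0773), Apol9b, Gbp2 (0.58, limma adjusted p = 0.0811) and Rtp4, a chaperone of receptor transport (0.65, limma adjusted p = 0.0852). In 15 of the 42, every treated library was above every control, compared with 5.79% of all genes. An unadjusted p under 0.05 in the higher direction was found for 19, compared with 9.02% of all genes, and for 0 in the lower direction. The lower end of the list held Ifitm2, at -0.05. The list was chosen with earlier results of these libraries known. The 7 became 2 without control siRNA replicate 1, 3 without control siRNA replicate 3 or 4 or without Ift88 siRNA replicate 1 or 2, and 1 with no filter on low TPM.

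Ahead of these effectors act sensors of foreign nucleic acid and the interferon signalling pathway. Ifih1, the sensor of long double-stranded RNA also known as MDA5, was at 6.40, 6.19, 4.58 and 5.05 TPM with control siRNA and 10.8, 10.1, 9.31 and 7.74 TPM with Ift88 siRNA, a log2 fold change of 0.68 (limma adjusted p = 0.0480), kept in 1 of the 8 fits without a library. It was the only 1 of 12 sensor genes past the adjusted p, and the list median was 0.08. Of 17 genes of interferon signalling, 0 passed the adjusted p by limma. An unadjusted p under 0.05 was found for 3, all higher, where 9.02% of all genes were higher and 4.91% lower. Among these 3 were Stat2 (log2 fold change 0.45, limma adjusted p = 0.135), which carries the signal of the receptor to the nucleus, and Irf7 (0.47, limma adjusted p = 0.220, with overlapping groups), a factor that amplifies the response. The list median was 0.08, with 12 genes higher and 5 lower in mean and Irf1 lowest, at -0.15. Ifnb1 was above 0 in 2 libraries, 1 of each group, at 0.372 and 0.213 TPM, and Ifnl2 and Ifnl3 were listed at 0 in all 8.

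Genes of MHC class I presentation, often raised by interferon, were tested as a list of 15. None passed the adjusted p by limma, and 6 had an unadjusted p under 0.05, all higher, where 9.02% of all genes were higher and 4.91% lower. The median log2 fold change was 0.10. H2-D1, a class I heavy chain, came closest, at 105 ± 14.5 against 133 ± 8.21 TPM (log2 fold change 0.34, limma adjusted p = 0.128).

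Chemokines moved in both directions. Ccl5 (chromosome 11, 83525778 to 83530518, GRCm38), which attracts T cells and monocytes, was at 71.9, 71.5, 65.7 and 53.6 TPM in the controls and 155, 148, 176 and 172 TPM with Ift88 siRNA, and by the ratio of means it was 2.48 times as high. No other of the 11209 genes had a smaller limma adjusted p (5.01e-05). Cxcl10, a ligand of CXCR3, a chemokine receptor on T cells, was at 154, 151, 137 and 144 TPM against 215, 225, 226 and 208 TPM. Its change of 0.57 in log2 (standard error 0.06, limma adjusted p = 0.00149) was just short of 1.5-fold, and it passed the adjusted p in all 8 fits without a library.

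Cxcl1, which attracts neutrophils, went the other way, from 1537, 1627, 1443 and 1681 TPM to 1195, 1151, 1089 and 1262 TPM, a change of -0.42 in log2 (standard error 0.07, limma adjusted p = 0.0137). Ccl20, which attracts dendritic and T cells that carry CCR6, was at 8.002, 6.72, 6.94 and 7.75 TPM against 3.45, 4.45, 5.54 and 3.46 TPM (log2 fold change -0.69, limma adjusted p = 0.0485), kept in 1 of the 8 fits without a library. Both groups of libraries stayed apart in each of these genes. Cxcl2, a close relative of Cxcl1, had a log2 fold change of -0.53 (limma adjusted p = 0.0759). The list median was -0.15. Of the 12 chemokines tested, 2 were higher and 2 lower by the adjusted p, and by an unadjusted p under 0.05 the numbers were 2 and 5, where 9.02% and 4.91% of all genes had one. Csf2, the growth factor GM-CSF, had the lowest log2 fold change of the 6 cytokines tested, at -0.58 (limma adjusted p = 0.106), with overlapping groups.

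**Figure D3:**
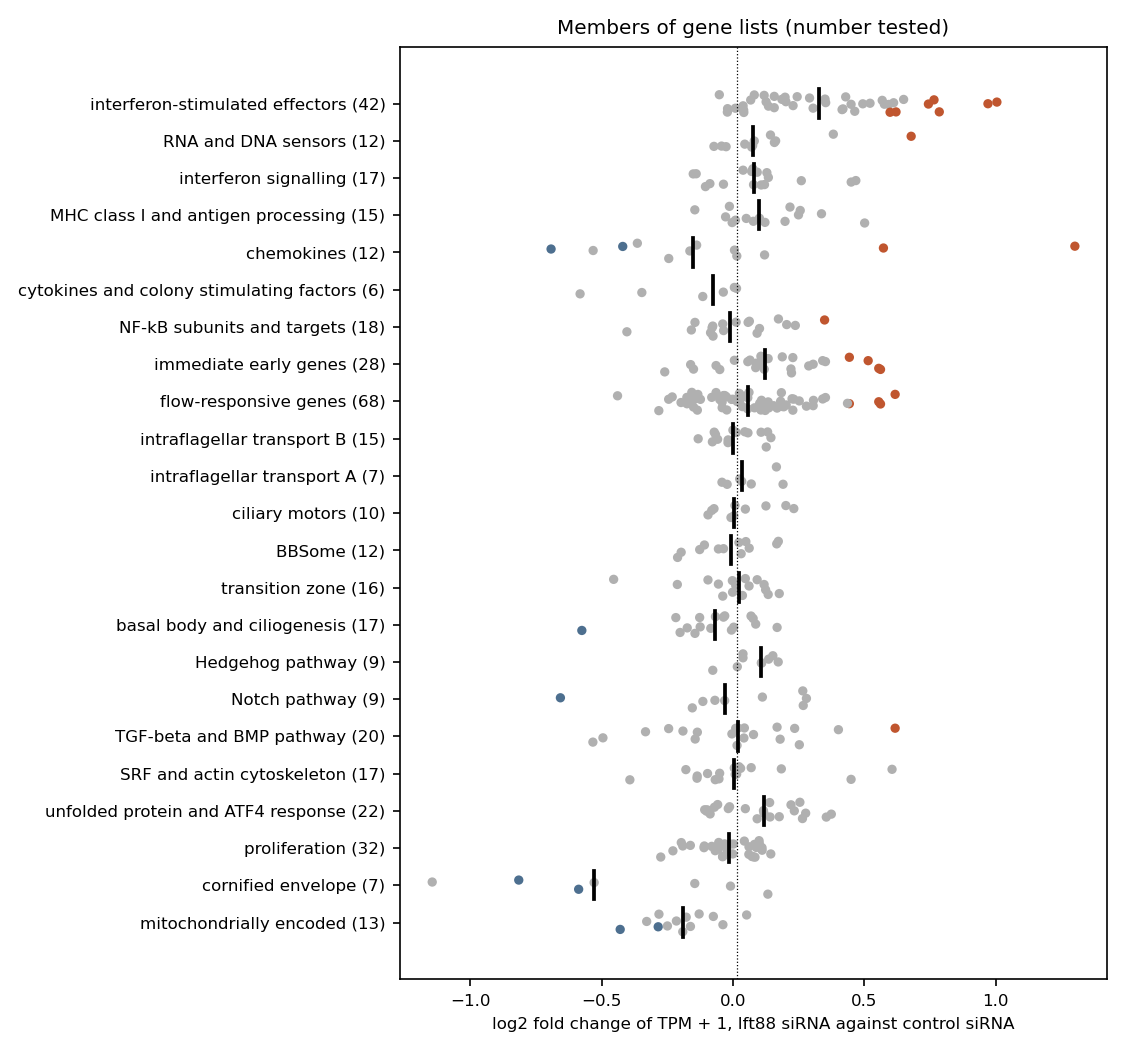
Log2 fold change (log2 of TPM + 1) of each tested member of 23 gene lists, with the number tested in brackets, members past the adjusted p in orange (higher) or blue (lower), the list median as a black line and the median of all genes as a dotted line. The effector list is centred at 0.33, chemokines spread from -0.69 to 1.30, and the ciliary lists lie around 0.

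Transcripts of other ciliary components differed little. Ift88 apart, the genes of 6 lists (intraflagellar transport A and B, motors, BBSome, transition zone, and basal body with ciliogenesis) were examined, and Cep97 alone passed the adjusted p. Cep97, a centrosomal protein that with its partner Ccp110 caps the centriole and holds back cilium growth, was at 4.99, 5.81, 5.51 and 6.44 TPM with control siRNA and 3.40, 3.53, 3.50 and 3.47 TPM with Ift88 siRNA. The treated libraries were all lower and nearly alike, and the change of -0.58 in log2 (standard error 0.11, limma adjusted p = 0.0480) stayed between -0.63 and -0.52 in the 8 fits without a library, while its adjusted p rose above 0.05 in each, to at most 0.137. Ccp110 itself was at -0.01 (limma adjusted p = 0.986). The medians of the 6 lists ran from -0.07 to 0.03. After Cep97 the lowest member was Rpgrip1l of the transition zone (-0.45, limma adjusted p = 0.612), which varied from 2.39 to 15.7 TPM between libraries.

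A pair of genes outside these lists was picked from those past the adjusted p for known links to cilia. Rab3il1, an exchange factor related to the Rab8 activator Rab3ip of the ciliogenesis pathway, was called higher, at 3.71, 3.56, 3.37 and 3.53 TPM against 6.39, 7.24, 5.61 and 5.77 TPM (log2 fold change 0.67, limma adjusted p = 0.0238), kept in 2 of the 8 fits without a library. Rabl2, a Rab-like GTPase that binds intraflagellar transport complex B, rose from 41.4 ± 2.67 to 54.1 ± 3.77 TPM (log2 fold change 0.38, limma adjusted p = 0.0485), and with median-of-ratios scaling its adjusted p was 0.0719. Hedgehog signalling, which runs through the cilium, had 9 genes tested, with 0 past the adjusted p by limma, 0 at an unadjusted p under 0.05 and a median of 0.11. The 10 polycystins, channels and cyclases tested also had 0 by both, with Trpv4 highest (0.23) and Pkd2 lowest (-0.18).

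The genes that responded to flow in the untransfected cells were then followed in the siRNA libraries, which share no sample with that experiment. With flow and static libraries blocked by replicate number, 68 of 11388 genes (0.597%) were called higher under flow and 0 lower. Without the block the list held 12 genes, and with the block but without replicate 6 it held 41 (0.361% of 11349), one of whose libraries carries conflicting labels. All 68 were tested under siRNA. Relative to control siRNA, 43 had a higher and 25 a lower mean with Ift88 siRNA, with a median log2 fold change of 0.06. Of all genes tested, 55.0% had a higher mean. The median was 0.01 for the 12 genes and 0.03 for the 41.

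Past the adjusted p were 4 of the 68, all higher with Ift88 siRNA, where 0.455% of all genes were higher and 0.178% lower by that rule. Btg2, an antiproliferative gene of the immediate early class, was at 208, 208, 223 and 217 TPM against 298, 285, 298 and 284 TPM (log2 fold change 0.44, standard error 0.05, limma adjusted p = 0.00223). Dusp1, a phosphatase that switches off MAP kinases, was at 48.1, 60.9, 49.3 and 51.9 TPM against 86.6, 65.4, 92.2 and 69.8 TPM (log2 fold change 0.56, limma adjusted p = 0.0481). Id3, an inhibitor of helix-loop-helix factors that BMP signals induce, was at 148, 188, 132 and 210.4 TPM against 269, 243, 276 and 238 TPM (log2 fold change 0.62, limma adjusted p = 0.0480). Id3 was also the only 1 of 20 genes of the TGF-beta and BMP pathway past it. Dusp1 and Id3 were more variable than Btg2, and with median-of-ratios scaling their adjusted p was 0.0549 and 0.0673. Fos, a subunit of AP-1, was the other, at 7.94, 8.11, 6.55 and 6.87 TPM against 10.99, 11.4, 12.5 and 10.2 TPM, and it passed in none of the 8 fits without a library. The 4 became 1 without control siRNA replicate 1 or 3, Ift88 siRNA replicate 1, 3 or 4, or the filter on low TPM, and 2 without control siRNA replicate 4, without Ift88 siRNA replicate 2 or with median-of-ratios scaling.

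The strongest flow responders did not pass the adjusted p here. Fosb, with a log2 fold change of 3.76 under flow, had one of 0.35 with Ift88 siRNA (limma adjusted p = 0.295), Egr1 0.34 after 2.98 (limma adjusted p = 0.302), and Ccn2, a matricellular growth factor target of YAP, 0.00 after 2.91. At the lower end were Spry2, an inhibitor of receptor tyrosine kinase signalling (-0.44, limma adjusted p = 0.135), Ereg, an EGF receptor ligand (-0.28, limma adjusted p = 0.277), and Inhba, a subunit of activin (-0.25, limma adjusted p = 0.185). For Ccn2, the control libraries lay between 209.5 and 235 TPM and the treated ones between 206 and 239 TPM. Among the 68, 16 higher and 7 lower genes had an unadjusted p under 0.05, where 9.02% and 4.91% of all genes did. Because no siRNA-treated library without flow was compared, these values show levels under flow and not how large the response to flow was in either group.

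**Figure D4:**
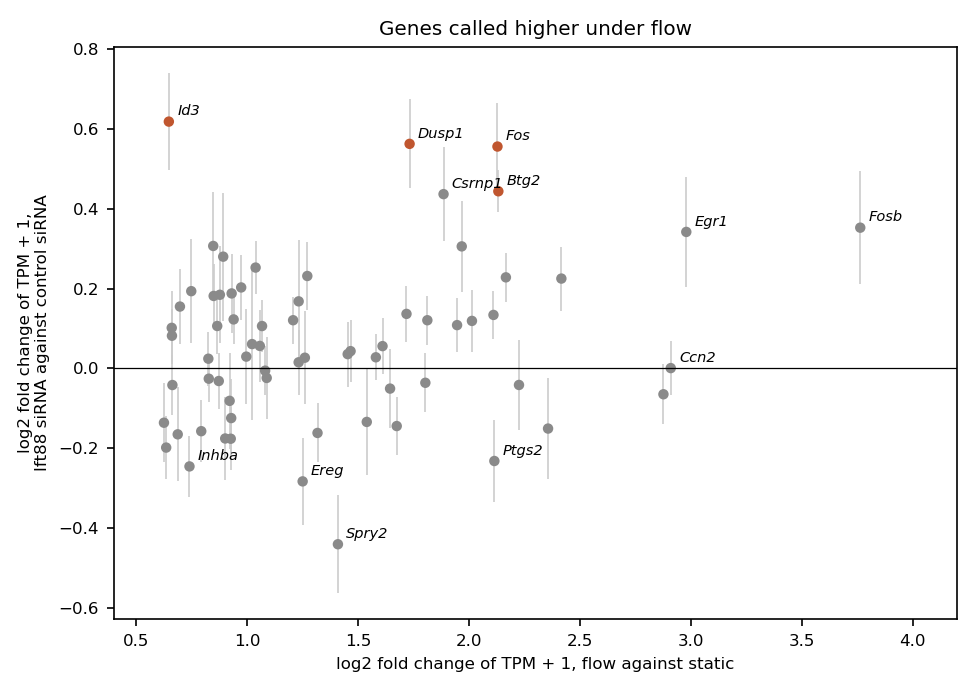
The 68 genes called higher under flow in untransfected cells, with their log2 fold change under flow (x axis) and with Ift88 siRNA against control siRNA (y axis, bars are standard errors), both of TPM + 1. The 4 orange points, Id3, Dusp1, Fos and Btg2, passed the adjusted p, and Ccn2 and most others lie near 0.

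Of 28 immediate early genes, which overlap the flow-responsive list, 4 passed the adjusted p, all higher: Btg2, Fos, Dusp1 and Atf3. By that rule 0.455% of all genes were higher and 0.178% lower. With an unadjusted p under 0.05 were 10 higher and 1 lower of the 28, where 9.02% and 4.91% of all genes had one. Atf3, a stress-induced factor of the ATF/CREB family, was at 75.8, 76.8, 72.3 and 84.0 TPM against 126, 103, 109 and 105 TPM (log2 fold change 0.51, limma adjusted p = 0.00922) and passed in all 8 fits without a library. The list median was 0.12. Srf, the factor that binds serum response elements of such genes, had a log2 fold change of 0.61 that missed the adjusted p (0.0739 by limma), with control libraries at 11.9, 9.59, 13.6 and 11.9 TPM and treated ones at 16.5, 17.1, 24.0 and 16.4 TPM. The groups did not overlap, and replicate 3 was the highest of both. Of the 17 Srf and actin genes tested, Srf included, and of 18 YAP/TAZ genes, none passed the adjusted p by limma. At an unadjusted p under 0.05 the first held 2 higher and 2 lower genes and the second 1 higher, beside the same 9.02% and 4.91%.

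Among the genes called lower besides Ift88 were a chromatin protein, a scaffold and a ligand. Hmga2, an architectural chromatin protein of growing and embryonic cells, was at 142, 141, 169 and 144 TPM in the controls and 97.7, 101, 88.9 and 89.8 TPM with Ift88 siRNA (-0.65 in log2, standard error 0.07, limma adjusted p = 0.00206). Nherf1, a PDZ scaffold that anchors transporters such as Cftr and Slc9a3 to ezrin below the apical membrane, was at 76.9, 73.1, 79.2 and 71.5 TPM against 53.9, 45.5, 45.5 and 41.4 TPM. These were called in all 8 fits without a library. Its relative Nherf2 had a log2 fold change of 0.43 (limma adjusted p = 0.209), and Nherf1 was the only 1 of 15 transport genes past the adjusted p.

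Jag1, a ligand of Notch receptors, was at 56.5, 49.6, 62.3 and 50.5 TPM against 31.6, 31.6, 41.2 and 33.1 TPM, and was called in 6 of the 8 fits. It was the only 1 of 9 Notch genes past the adjusted p. Of the others, Lfng, which modifies Notch receptors, was at 0.27 (limma adjusted p = 0.120) and the target Hes1 at 0.28 (limma adjusted p = 0.458).

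Lce1g and Lce1f, late cornified envelope genes better known from skin, were called lower, Lce1g from 136 ± 24.3 to 76.4 ± 8.23 TPM and Lce1f from 59.8 ± 6.62 to 39.5 ± 5.02 TPM. Lce1g was called in all 8 fits without a library and Lce1f in 2 of them. They were the 2 of 7 cornified envelope genes tested that passed the adjusted p, with a list median of -0.53 that became -0.002 with no filter on low TPM. A relative, Lce1h, had a larger log2 fold change of -1.15 but a wider spread (limma adjusted p = 0.0828). These genes are near-identical, so reads can be shared among them and the members' values are not independent. Kctd3, a BTB domain protein, went from 13.7 ± 0.764 to 8.68 ± 1.36 TPM and was called in none of the 8 fits without a library.

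The last 6 genes called higher belong to no list used here. Chst12, which sulfates chondroitin, went from 25.1 ± 1.40 to 38.3 ± 3.45 TPM and was called in 5 of the 8 fits, and Selenop, a secreted selenium carrier, from 44.7 ± 5.78 to 68.5 ± 6.76 TPM, called in 4. Cnnm2, a magnesium transport protein (log2 fold change 0.73), Shld2, of the shieldin complex that protects DNA ends (0.76), and Dnajc30, a mitochondrial J-domain protein (0.59), were called in 2, 1 and 2 of them. Rsc1a1 was at or near 0 in all 4 controls and at 1.16, 0.66, 5.51 and 3.94 TPM with Ift88 siRNA. It was tested in 7 of the fits without a library and called in 1. It overlaps Ddi2, so reads of one can be assigned to the other, and with median-of-ratios scaling its adjusted p was 0.0606.

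Of the genes past the adjusted p without a 1.5-fold change, several fell by about the same amount. Prkg2, a cGMP-dependent kinase, went from 128 ± 6.43 to 91.3 ± 5.40 TPM (log2 fold change -0.48, limma adjusted p = 0.00799) and Scoc, a coiled-coil protein of the Golgi and autophagy, from 223 ± 6.53 to 169 ± 7.83 TPM (-0.40, limma adjusted p = 0.00855), both past it in all 8 fits. Stx12 and Vamp3, SNARE proteins of endosomes, were at -0.34 (limma adjusted p = 0.0485) and -0.36 (limma adjusted p = 0.0480) and passed in none of these fits. Of those that rose, Ppp2r1a, the scaffold subunit of phosphatase PP2A, was at 0.40 (limma adjusted p = 0.00837), and Pigs, of the transamidase that attaches GPI anchors, at 0.37 (limma adjusted p = 0.00855). Ass1, of arginine synthesis, was at 0.40 (limma adjusted p = 0.0107) and Taldo1, of the pentose phosphate pathway, at 0.37 (limma adjusted p = 0.0119). Tnip1, an inhibitor of NF-kB signalling, was the only 1 of 18 NF-kB genes past the adjusted p, at 0.35 (limma adjusted p = 0.0480, and 0.0603 with median-of-ratios scaling).

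Of 13 transcripts encoded in mitochondria, 12 had a lower mean with Ift88 siRNA and 2 passed the adjusted p, both subunits of complex I. mt-Nd2 was at 623, 596, 684 and 606 TPM against 498, 469.9, 466 and 428 TPM (log2 fold change -0.43, limma adjusted p = 0.00959), and all treated libraries were lower. mt-Nd1 was at -0.28 (limma adjusted p = 0.0489, 0.0646 with median-of-ratios scaling and 0.0528 with a replicate block). The list median was -0.19, with 7 lower at an unadjusted p under 0.05. Of all genes 45.0% had a lower mean and 4.91% were lower at that threshold. Summed over the 13 genes, the controls held between 31044 and 34774 TPM and the treated libraries between 28530 and 32731 TPM, which overlap (two-sided exact permutation p = 0.114, 0.171 after Benjamini-Hochberg adjustment over 3 library features). The 88 nuclear genes of the respiratory chain had a median of 0.04 and 0 past the adjusted p by limma. At an unadjusted p under 0.05, 7 were higher and 1 lower, where 9.02% and 4.91% of all genes were.

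The following lists of general cell state had no member past the adjusted p by limma, and their counts at an unadjusted p under 0.05 stand beside 9.02% higher and 4.91% lower of all genes. Of 32 proliferation genes, 3 were lower and 0 higher at an unadjusted p under 0.05, and the median was -0.02. Of 22 genes of the unfolded protein and ATF4 response, 8 were higher at that threshold and 0 lower, with a median of 0.12 and Ppp1r15a, which restores translation after stress, at the top (0.37, limma adjusted p = 0.185). Of 14 heat shock genes 3 were higher, of 19 p53 targets 5 higher and 1 lower, and of 16 Nrf2 targets 1 higher and 2 lower. The 11 genes of the RNA interference machinery had 0 at that threshold, with log2 fold changes from -0.21 to 0.14. Also without a member past it were 22 cholesterol genes (2 higher and 0 lower at an unadjusted p under 0.05), 17 matrix and integrin genes (0 and 1), 12 of hypoxia and glycolysis (0 and 2), 15 of cell junctions (3 and 0) and 82 ribosomal protein genes (0 and 10).

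Set beside the untransfected cells, several of these genes stood at other levels in the control siRNA libraries. The experiments are in separate tables and differ in more than transfection, so the levels are given without a test, as the lowest, median and highest TPM. Ccl5 was at 84.3, 253 and 371 TPM in the 6 flow libraries and 104, 239 and 396 TPM in the 6 static ones, above all control siRNA libraries (53.6 to 71.9 TPM). Isg15 was at 42.7, 69.4 and 84.5 TPM under flow, also above the controls, and its Ift88 siRNA libraries (46.7 to 54.0 TPM) lay within that range. Ifit1, at 11.4, 14.4 and 20.0 TPM under flow, was near the controls and below the Ift88 siRNA libraries. Interferon-stimulated genes thus did not share 1 order of the 4 groups.

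Jag1 was at 2.69, 4.06 and 7.66 TPM in untransfected flow libraries and Hmga2 at 26.8, 48.3 and 52.3 TPM, both far below the control siRNA libraries (49.6 to 62.3 and 141 to 169 TPM). Lce1f was at up to 1.14 TPM under flow and at 51.7 to 67.4 TPM with control siRNA. Ccl20 was at up to 1.96 TPM under flow and at 6.72 to 8.002 TPM with control siRNA. In these 4 genes the Ift88 siRNA libraries were between the other groups. Nherf1 differed from them, with flow libraries at 66.5, 74.9 and 97.6 TPM around the control siRNA level (71.5 to 79.2 TPM) and Ift88 siRNA libraries below both. Ift88 itself was at 3.24, 4.38 and 5.73 TPM under flow, a range that holds all 4 control siRNA libraries.

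The cells were checked against marker lists. Of 5 epithelial markers 3 reached 1 TPM in some library, with Krt18 at 128 to 159 TPM and Krt8 at most at 0.639 TPM, and 0 of 7 principal cell markers did, with Aqp9 at most at 0.413 TPM, so the label principal cell is not borne out by these transcripts. Basal, clear and endothelial markers also stayed below 1 TPM, and of fibroblast and smooth muscle markers the highest was Acta2, at most 3.15 TPM. Summed fibroblast markers ran from 1.41 to 2.73 TPM in the controls and from 1.41 to 2.17 TPM with Ift88 siRNA, and smooth muscle markers from 2.14 to 3.04 and from 2.31 to 5.61 TPM. Of 6 leukocyte markers Cd68 was present, at 87.1 to 98.9 TPM in both groups alike, while Ptprc was at most at 0.057 TPM. Summed epithelial markers ran from 135 to 168 TPM in the controls and from 149 to 166 TPM with Ift88 siRNA. In such bulk RNA, fewer cells that express a gene and less RNA per cell cannot be told apart.

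The Ift88 siRNA libraries also listed more genes above 0. They held 15713, 16218, 16682 and 16247 genes above 0 TPM, and the controls 15292, 15382, 15341 and 15354, a difference in every library (two-sided exact permutation p = 0.0286, 0.0857 after Benjamini-Hochberg adjustment over 3 library features). The excess lay in genes under the filter, of which 4509 to 5483 were above 0 against 4096 to 4179, and these sum to at most 1674 of the 1000000 TPM of a library. Summed principal cell markers, which are among them, were at 0.0494 to 0.27 TPM in the controls and 0.402 to 0.91 TPM with Ift88 siRNA. The part of this excess in the results above was not tested. Depth relative to the median library, read from the steps that single reads leave in low TPM, was 0.97, 1.03, 0.935 and 1.06 in the controls and 1.06, 0.925, 0.946 and 1.32 with Ift88 siRNA. Ift88 siRNA replicate 3, the library with the most genes above 0, was at 0.946 and replicate 4, the deepest, at 1.32. A part of depth in the excess was not tested. TPM hold no total of reads, so the read total of each library is unknown.

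**Figure D5:**
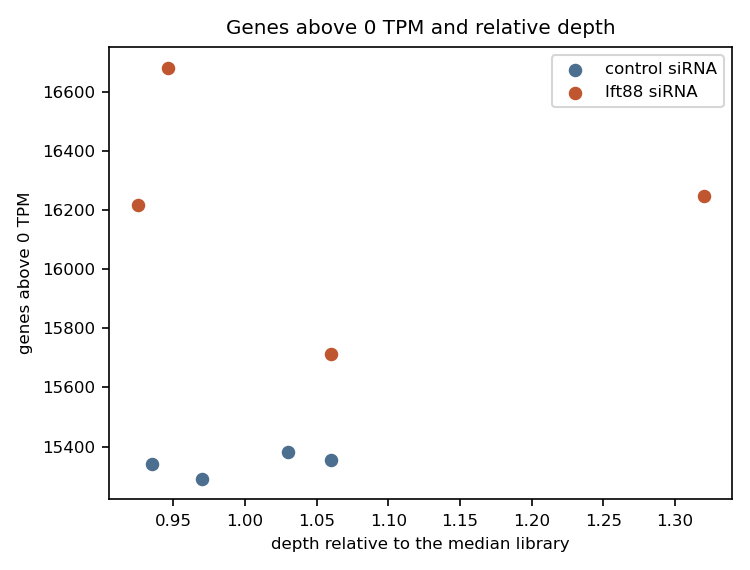
Genes above 0 TPM (y axis, axis not starting at 0) and depth relative to the median library (x axis) of the 4 control siRNA (blue) and 4 Ift88 siRNA (orange) libraries. The orange points lie between 15713 and 16682 genes, above the blue ones at 15292 to 15382, at depths from 0.925 to 1.32.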

How the data were processed

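RNA-seq of 8 libraries, 4 with Ift88 siRNA and 4 with control siRNA, grouped by their labels, was analysed. The authors deposited TPM for protein-coding genes, in a separate table for each experiment. According to the paper, trimmed reads were pseudoaligned by kallisto to Ensembl mouse transcripts and collapsed to genes by tximport. The submitters' processing notes name fastp 0.20.0 and kallisto 0.46.2. The deposited TPM are not counts and hold no total of reads, so no count test was run.

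From the TPM, log2(TPM + 1) was compared with limma 3.58.1 (R 4.3.3, eBayes with an intensity trend, Benjamini-Hochberg adjustment) over genes that averaged 1 TPM or more. Fold changes are on this scale and understate low genes. Single values were compared by two-sided exact permutation tests of 70 arrangements. Named were all called genes, of each list up to 6 members past the adjusted p, and Fos, Csf2 and Srf. Named only in part were the up to 10 others per direction with the lowest adjusted p, and each list's highest and lowest member. The part named, and single genes beyond this rule (Cxcl2, Rtp4, Ifi27, Gbp2, Apol9b, Ccp110, H2-D1, Stat2, Lfng, Rabl2, Stx12, Fosb, Ccn2, Ereg, Inhba and others given only for comparison), were chosen after their values were seen. Members and lists were chosen with earlier results of these data known. Gene positions are from GENCODE M21 on GRCm38, an older build than that of the authors' annotation, and 250 bases before each start from RefSeq, matched by gene number. Alternatives covered the filter, library weights, a replicate block, median-of-ratios scaling, 0.1 as pseudocount and each library left out. Figures and summaries were made in Python 3.11.15 (pandas 2.3.3, matplotlib 3.10.9). No sample column of the table was left out.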

Additional observations from a re-analysis of the deposited data

Results flagged for a closer look

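In groups of 4 libraries, a library was marked when its gap to the nearest of the others, as a share of the group's range, exceeded Dixon's 95% critical value, and chance flags about 1 in 20 groups. Among 152 groups, those of the genes past the adjusted p, Csf2, Srf and the 3 library features, 11 were flagged. Among interferon-stimulated genes, Ift88 siRNA replicate 1 was highest, with 54.0 TPM of Isg15 (the others 46.7 to 47.1) and 65.5 TPM of Ifit2 (46.5 to 49.5). Ift88 siRNA replicate 3 stood highest for Srf, at 24.0 TPM (the others 16.4 to 17.1), and for Jag1, at 41.2 TPM (31.6 to 33.1). Other treated libraries were replicate 4 for Lce1f, at 47.0 TPM (36.2 to 37.5), and replicate 2 for Oscp1, at 30.4 TPM (26.7 to 27.1). Among the controls, replicate 3 held 169 TPM of Hmga2 (141 to 144) and 259 TPM of Pdia6 (270 to 272). Replicate 2 held 118 TPM of Prkg2 (the others 130 to 132) and 182 TPM of Dap (175 to 176). Replicate 4 held 121 TPM of Ncstn (128 to 129). In each of these genes the flagged library stayed on its own group's side of the other group.

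Genes left out of the comparisons for a mean under 1 TPM were listed above 0 more often with Ift88 siRNA. The lowest treated library had 4509 of these 10300 genes above 0 and the controls 4096 to 4179.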

How the results depend on the processing

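Ift88 was lower and past the adjusted p in every fit that tested it, with a log2 fold change from -1.259 to -1.091 over the fits without 1 library. It is under the stricter minimum of 5 TPM. The 25 calls became 6 with no filter on low TPM, which tests 19195 genes, 48 with library weights and 71 with no fold change threshold, and ran from 11 to 23 without 1 library, of which 9 to 17 were among the 25. The 7 interferon-stimulated effectors past the adjusted p became 1 with no filter and 11 with library weights, and ran from 2 to 6 without 1 library. The fits differ in the number of genes or libraries, and the cause of these changes was not tested. A set of 72 genes was followed, those past the adjusted p other than Ift88, with Csf2 and Srf, which had not passed it. Of these, 19 lost it with median-of-ratios scaling, 56 with no filter and 36 to 52 without 1 library. None of the 72 changed direction in any fit. The median of the flow-responsive genes stayed between 0.04 and 0.108 without 1 library.

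Deviations of libraries with the same replicate number from their group means correlated at 0.046, 0.003, 0.259 and 0.176 over genes for replicates 1 to 4. Replicates 3 and 4 each correlated best with their own number and replicates 1 and 2 did not, so these values do not settle a pairing. The libraries were compared as unpaired because the study's methods name no pairing. With a replicate block 174 genes passed the adjusted p, 10 effectors among them, and 44 genes were called, the 25 included. The read total of each library is unknown, and values near 1 TPM are the least certain.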
